A study of Mus musculus with 8 samples.

Results

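miR-103 and miR-107 are 2 of the 611 mouse microRNAs on the array, and were taken as the entries whose systematic names are mmu-miR-103 and mmu-miR-107. A microRNA is a short RNA that guides silencing proteins to messenger RNAs through its seed, bases 2 to 8 from its 5′ end. Total RNA came from mouse embryonic fibroblasts of strain C57BL/6J and genotype Csk-/-. All groups share the loss of Csk, a kinase that phosphorylates c-Src on its tail and holds it inactive. The groups were cells given Csk together with c-Src (Csk+Src), cells given Csk alone (Csk), cells given c-Src alone (Src) and cells given empty vector (mock). Each group had 2 arrays, 8 in all, which the labels call biological replicates. The sources used here do not say whether the replicates were separate cultures, so the p-values measure the spread between these arrays, which may be technical. Nor do they give the vectors' promoters, the number of clones or the age of the embryos.

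miR-103 and miR-107 are known as microRNAs of the Pank genes, whose products, the pantothenate kinases, start the synthesis of coenzyme A. In mouse liver and fat they are known to lower caveolin-1 and insulin sensitivity, and in human breast cancer cells they are known to target Dicer, the enzyme that cuts microRNA precursors. They belong to a larger group of microRNAs, with miR-15, miR-16, miR-195, miR-322, miR-497 and miR-503, that carry AGCAGC near the 5′ end. Members of that group are known to act on cell-cycle messages such as those of the cyclins D and E.

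The mature RNAs are shown because their likeness sets how far the array can tell them apart. They are given 5′ to 3′ with the seed in capitals.

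miR-103: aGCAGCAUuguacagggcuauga

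miR-107: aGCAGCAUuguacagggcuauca

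Both are 23 bases long with the same seed, GCAGCAU, and 22 of the 23 bases are identical. The 1 change is G22C, counted from the 5′ end, with the base of miR-103 first. The probes' sequences were not used here, and how far each probe also binds the other RNA was not tested.

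miR-103 comes from a pair of genes and miR-107 from 1. Their hairpin precursors, from RefSeq on build GRCm38.p6, show the mature RNA in capitals on the 3′ arm.

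Mir103-1: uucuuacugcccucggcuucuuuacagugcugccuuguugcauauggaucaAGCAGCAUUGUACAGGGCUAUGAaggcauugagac

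Mir103-2: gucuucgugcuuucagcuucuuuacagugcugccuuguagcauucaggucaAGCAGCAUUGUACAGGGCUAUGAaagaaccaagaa

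Mir107: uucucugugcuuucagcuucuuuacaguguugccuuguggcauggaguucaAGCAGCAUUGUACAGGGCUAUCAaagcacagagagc

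Mir103-1 lies at chr11:35782396-35782481 on the plus strand, within the span of Pank3 (35769495 to 35791285). Mir103-2 lies at chr2:131288052-131288137 on the plus strand, within the span of Pank2 (131262008 to 131299188). Mir107 lies at chr19:34820687-34820773 on the minus strand, within the span of Pank1 (34806935 to 34883423). The annotation used here gives gene spans without exons. The mature RNA starts at base 52 of each hairpin, and the hairpins are 86, 86 and 87 bases long. The array's miR-103 signal sums what both Mir103 genes yield, and their shares cannot be told apart.

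Each array had 13000 spots that were not controls, detected between 201 and 250 mouse microRNAs, and had 0 saturated spots. Precision is limited by having 2 arrays a group. Each microRNA's signal was scaled by the upper quartile (75th percentile) of the 187 microRNAs that every array detected, so a log2 scaled signal of 0 lies at that percentile. Csk array 2 stood apart, with 696 spots excluded as outliers, against 270 to 351 on the other arrays, and with the fewest detected microRNAs (201). Per the file headers each group filled 1 column of 1 slide, so group and slide column cannot be told apart. Of 9 fibroblast and mesenchymal markers 8 were detected, 7 of them on all arrays, and miR-145 was the 1 not detected. Their summed scaled signal was 42.5 to 43.7 in Csk+Src, 38.7 to 45.0 in Csk, 46.6 to 52.4 in Src and 36.4 to 40.2 in mock cells. These sums do not show how each marker changed. Of the markers of other cell types, 1 of 5 epithelial, 0 of 2 keratinocyte, 2 of 4 muscle, 1 of 7 blood cell and 3 of 6 neural markers were detected on any array. Both endothelial markers, the arms of miR-126, were detected at low level.

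Both microRNAs were highest in cells given Csk alone. The log2 scaled signal of miR-103 was -0.12 and -0.14 on the Csk+Src arrays, 0.43 and 0.51 on the Csk arrays, -0.19 and -0.04 on the Src arrays and -0.04 and 0.04 on the mock arrays. The Csk arrays lay above all 6 others, and the arrays of Csk+Src and Src overlapped. miR-107 had 0.06 and 0.05 on the Csk+Src arrays, 0.41 and 0.50 on the Csk arrays, 0.06 and 0.17 on the Src arrays and 0.20 and 0.28 on the mock arrays. Its Csk arrays were again above all others, and again only Csk+Src and Src overlapped. The group means of miR-103 were -0.13 ± 0.02 in Csk+Src, 0.47 ± 0.05 in Csk, -0.12 ± 0.10 in Src and -0.00 ± 0.05 in mock cells (SD, n = 2 each). Those of miR-107 were 0.05 ± 0.01 in Csk+Src, 0.46 ± 0.06 in Csk, 0.11 ± 0.08 in Src and 0.24 ± 0.05 in mock cells (SD, n = 2 each). From high to low, the order of the groups was Csk, mock, Src and Csk+Src for each of them. Among neighbours in that order, only Csk and mock differed past the threshold of the test. A single exact permutation test over the 4 groups gave p = 0.0571 for miR-103 and p = 0.019 for miR-107, where the smallest p it can give is 0.00952. Both depended on the processing: for miR-103 the exact p ran from 0.00952 to 0.0667 over 9 alternatives, 4 of which passed, and for miR-107 it was 0.0857 with the percentile over all mouse microRNAs.

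**Figure D1:**
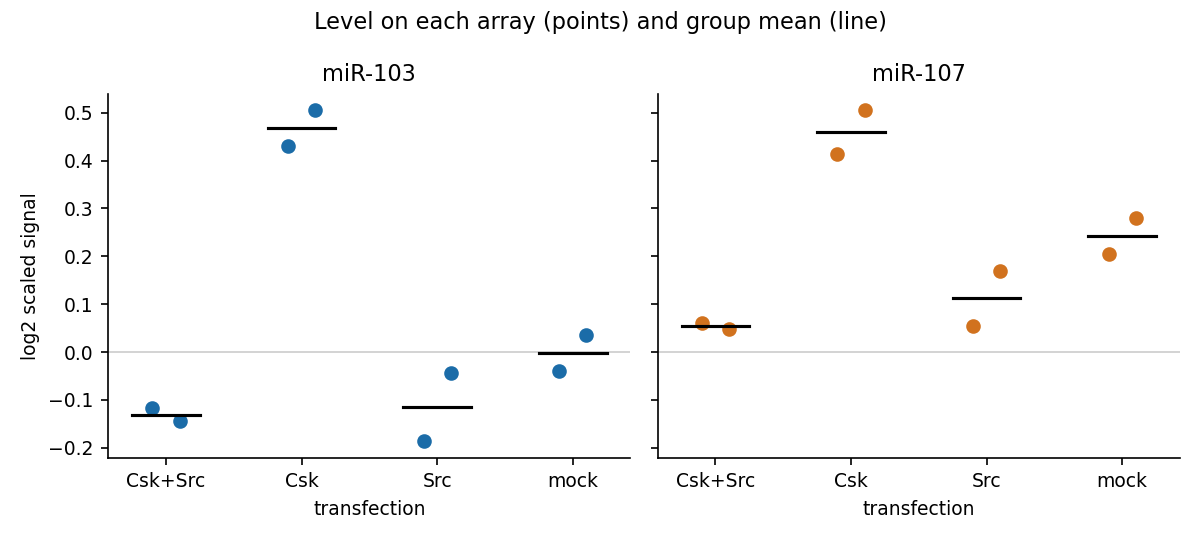
Log2 scaled signal of miR-103 (left) and miR-107 (right) on each of the 8 arrays (points, replicate 1 left of replicate 2) and as the group mean (line), by transfection. The Csk arrays lie above all others for both microRNAs, between 0.41 and 0.51.

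Csk alone set against empty vector asks what the return of Csk does where no c-Src was added. miR-103 rose by 0.47 on the log2 scale (SE 0.06, 95% interval 0.32 to 0.62, limma adjusted p = 0.00169), a 1.39-fold rise. miR-107 rose by 0.22 (SE 0.06, 95% interval 0.07 to 0.36, limma adjusted p = 0.0224), a 1.16-fold rise. The arrays of the 2 groups did not overlap for either microRNA. How many of all tested microRNAs were also without overlap was not counted. An exact test of 2 arrays against 2 cannot give a p below 0.333. Of the 243 microRNAs tested, 55.1% passed the limma test in either direction and 38.3% were higher in Csk cells. The median difference over all tested microRNAs was 0.07, and its sign depended on the scaling, with -0.05 for the percentile over all mouse microRNAs, -0.04 under quantile normalization, -0.05 for the summed signal and -0.29 with normexp. By size of difference from the highest down, miR-103 stood at rank 59 and miR-107 at rank 98 of 243.

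The rise of miR-103 kept its direction and its call under the 5 other scalings, with differences from 0.29 to 0.54. The series table, which has no scaling between arrays, is counted as 1 of the 5. With normexp background correction the rise of miR-103 was 0.41 with a limma adjusted p of 0.0642. miR-107 stayed higher in Csk than in mock cells under each scaling, but its difference was 0.04 with the percentile over all mouse microRNAs, 0.04 with the summed signal, 0.09 with the median of detected microRNAs and 0.10 under quantile normalization, and it did not pass in any of these 4. With normexp (0.21) or with no filter on detection (0.22) it did not pass either. Without Csk array 2 the difference was 0.38 for miR-103 (adjusted p = 0.0044) and 0.12 for miR-107 (adjusted p = 0.0654). The call of miR-107 was also lost without mock array 1 (0.18), mock array 2 (0.26) or Csk+Src array 2 (0.23). Epithelial and endothelial markers also had their highest sums in Csk cells. The epithelial sum was 0.0399 to 0.046 in Csk, against 0.0192 to 0.0233 in mock cells, and added all 5 markers, detected or not. Of these miR-200a, miR-200c, miR-141 and miR-429 were not detected on any array. The remaining marker was not detected on both arrays of any group. The endothelial sum was 0.0966 to 0.0971 in Csk, against 0.0629 to 0.0662 in mock cells. Other lists went otherwise. The muscle sum was highest in mock cells (0.0602 to 0.0652, against 0.0444 to 0.0472 in Csk). Neural and keratinocyte sums were highest in Src cells, and blood cell sums of mock and Csk cells overlapped. The part of all these markers in the result was not tested. Fewer cells with a microRNA and less of it per cell cannot be told apart in these bulk samples.

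Csk+Src cells set against Csk cells ask what added c-Src does where Csk is present. Both microRNAs fell. miR-103 was lower by a log2 difference of -0.60 (SE 0.06, 95% interval -0.75 to -0.44, limma adjusted p = 0.000571), and miR-107 by -0.41 (SE 0.06, 95% interval -0.55 to -0.26, limma adjusted p = 0.0019). As ratios the levels were 1.52-fold lower for miR-103 and 1.32-fold lower for miR-107. Arrays did not overlap for either, and here too the share of all tested microRNAs without overlap was not counted. Of all tested microRNAs 60.9% passed in either direction and 41.6% were lower in Csk+Src cells, and their median difference was -0.15. miR-103 stood at rank 53 and miR-107 at rank 81 from the lowest. The same Csk arrays enter this comparison and the one with mock cells, so the 2 are not independent. Without Csk array 2 the differences were -0.36 for miR-103 (adjusted p = 0.00374) and -0.16 for miR-107 (adjusted p = 0.031). With the percentile over all mouse microRNAs miR-103 had -0.25 (adjusted p = 0.0257) and miR-107 had -0.06 (adjusted p = 0.459). Normexp also ended the call of miR-107 (-0.35).

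c-Src alone, set against empty vector, addresses c-Src without Csk. miR-103 had a log2 difference of -0.11 (SE 0.06, 95% interval -0.27 to 0.04, limma adjusted p = 0.189), and between -0.20 (without Src array 2) and -0.04 (without Src array 1) with 1 array left out. miR-107 had -0.13 (SE 0.06, 95% interval -0.27 to 0.01, limma adjusted p = 0.125). Neither passed, although 44.4% of tested microRNAs did. Scaled by the summed signal, both passed (-0.20 for miR-103 and -0.22 for miR-107), and miR-107 did without Csk array 2 (-0.13). The Src arrays lay below the mock arrays for both, for miR-103 by a narrow margin, with -0.0444 on the higher Src array and -0.0400 on the lower mock array. In the unscaled series table the signs turned, to 0.19 for miR-103 and 0.18 for miR-107. There the median of all tested microRNAs was 0.31, so both lay below that median.

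Csk+Src cells set against Src cells ask what Csk does where c-Src was added. miR-103 differed by -0.02 (95% interval -0.17 to 0.14, limma adjusted p = 0.889) and miR-107 by -0.06 (95% interval -0.20 to 0.08, limma adjusted p = 0.469), against 44.9% of microRNAs that passed. These signs turned under some scalings. With the percentile over all mouse microRNAs the differences were 0.21 for miR-103 and 0.17 for miR-107, and neither passed. miR-103 passed as higher with the summed signal (0.10, adjusted p = 0.0253) and without Csk array 2 (0.13, adjusted p = 0.0464). miR-107 passed as lower under quantile normalization (-0.20, adjusted p = 0.0114). Csk+Src set against mock gave -0.13 for miR-103 (95% interval -0.28 to 0.03, limma adjusted p = 0.15) and -0.19 for miR-107 (95% interval -0.33 to -0.04, limma adjusted p = 0.0543). In that comparison 34.2% of tested microRNAs passed. miR-103 passed there with the summed signal (-0.10, adjusted p = 0.0255), and its sign turned with the percentile over all mouse microRNAs (0.04), in the series table (0.06) and without Csk array 2 (0.02). miR-107 passed in 7 of 21 alternatives, with the replicate block among them (-0.19, adjusted p = 0.0235), and was near 0 in the series table (0.0025).

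The interaction asks whether the change with c-Src differed between cells with and without Csk. It was -0.49 for miR-103 (SE 0.09, limma adjusted p = 0.00667) and -0.28 for miR-107 (SE 0.08, limma adjusted p = 0.0352), against a median of -0.17 over all tested microRNAs. Of these 50.6% passed in either direction and 37% were lower. For miR-103 the sign held under each scaling and the call ended with the percentile over all mouse microRNAs (-0.08), with normexp (-0.42) and without mock array 2 (-0.51) or Csk+Src array 2 (-0.44). For miR-107 the sign turned under that scaling (0.13) and under the summed signal (0.01). Without Csk array 2 the interaction was -0.25 for miR-103 (adjusted p = 0.0326) and -0.03 for miR-107 (adjusted p = 0.671). Leaving out any 1 array other than Src array 1 or Csk array 1 ended the call of miR-107.

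**Figure D2:**
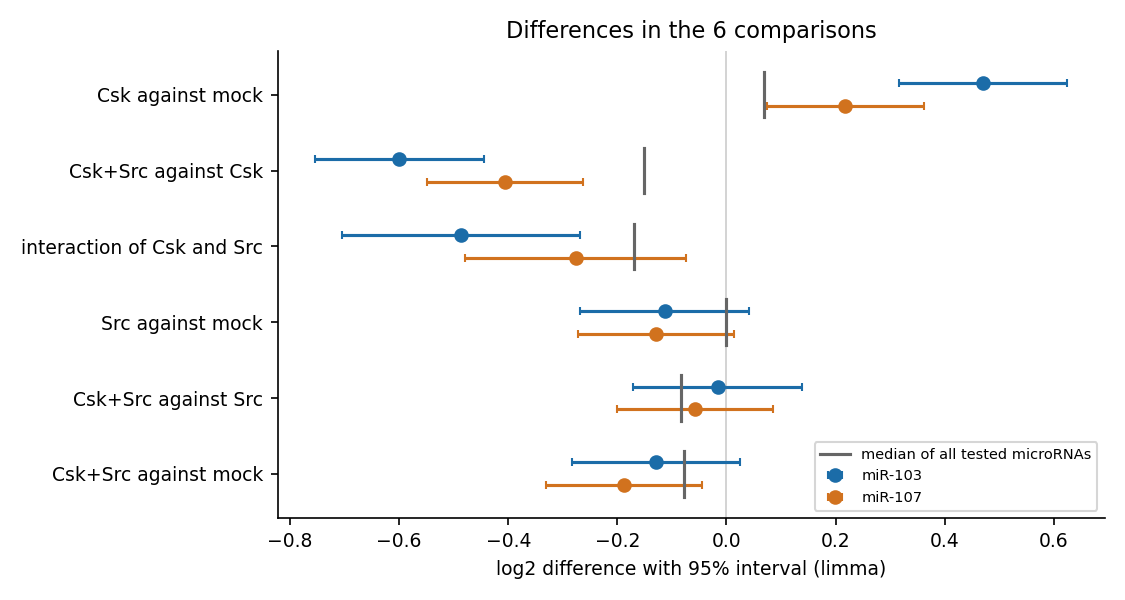
Log2 differences of miR-103 and miR-107 in the 6 comparisons (points) with 95% intervals from limma, beside the median of all 243 tested microRNAs (grey bars). The intervals of both microRNAs lie wholly above 0 in Csk against mock and wholly below 0 in Csk+Src against Csk and in the interaction.

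**Figure D3:**
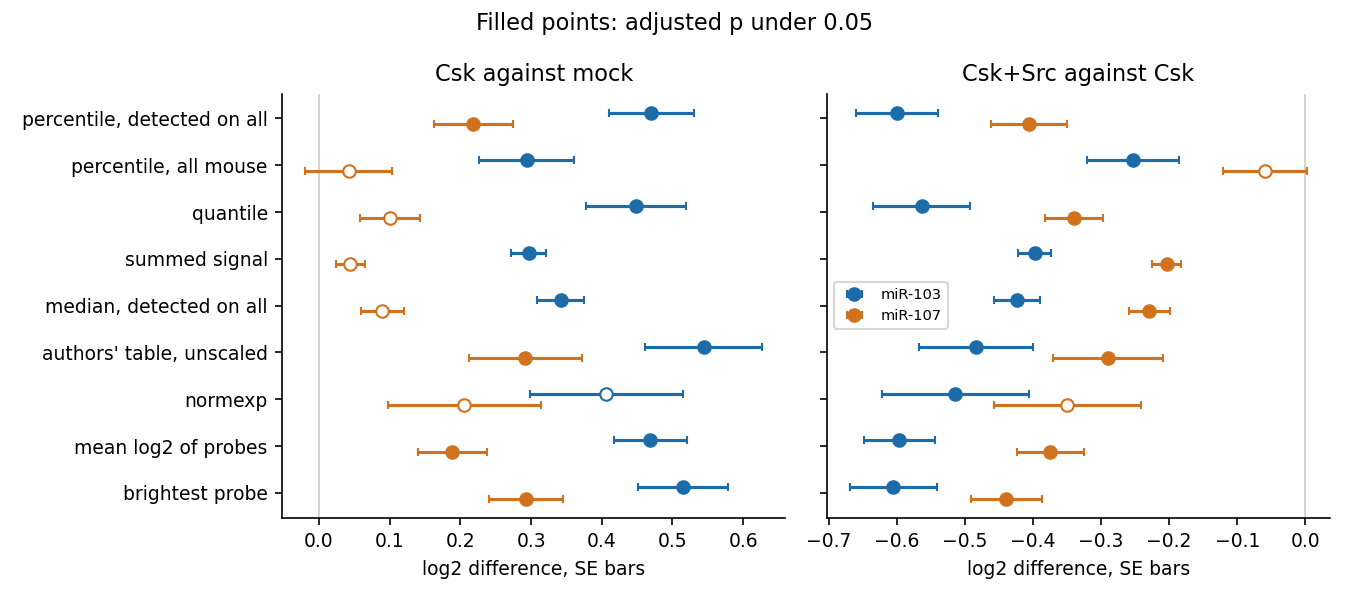
Log2 difference (points, SE bars) of both microRNAs in Csk against mock (left) and Csk+Src against Csk (right) under 9 ways of scaling, background correction and probe summary. miR-103 passes in all but 1 of the points, while miR-107 spans 0.04 to 0.29 on the left and has open points in both panels.

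miR-103 and miR-107 did not change by the same amount. The log2 signal of miR-103 minus that of miR-107 on the same array needs no scaling between arrays. Since different probes read the RNAs, its level says nothing of which is more abundant, and only its change between groups is read. It was -0.18 and -0.19 on the Csk+Src arrays, 0.02 and 0.00 on the Csk arrays, -0.24 and -0.21 on the Src arrays and -0.24 and -0.24 on the mock arrays. Both Csk arrays stood above the 6 others. In Csk against mock it rose by 0.25 (SE 0.02, 95% interval 0.19 to 0.32), so the fold rise of miR-103 was 1.19 times that of miR-107. The limma fit gave an adjusted p of 0.000843, adjusted over the 6 comparisons of this difference. It changed by -0.19 (SE 0.02, 95% interval -0.26 to -0.13, limma adjusted p = 0.0015) in Csk+Src against Csk. The interaction was -0.21 (SE 0.03, adjusted p = 0.00347, limma).

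The other 3 comparisons of the within-array difference did not pass. It was 0.02 in Src against mock (95% interval -0.05 to 0.08), 0.04 in Csk+Src against Src (95% interval -0.02 to 0.11) and 0.06 in Csk+Src against mock (95% interval -0.01 to 0.12). The exact permutation test over the 4 groups gave p = 0.00952, the smallest it can give. Leaving out any 1 array kept the difference between 0.24 and 0.26 in Csk against mock, and without Csk array 2 it was 0.26. With normexp background correction it was 0.20 in Csk against mock and -0.16 in Csk+Src against Csk, and neither passed. The interaction did not pass with normexp (-0.16), under quantile normalization (-0.14) or in the series table (-0.21).

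**Figure D4:**
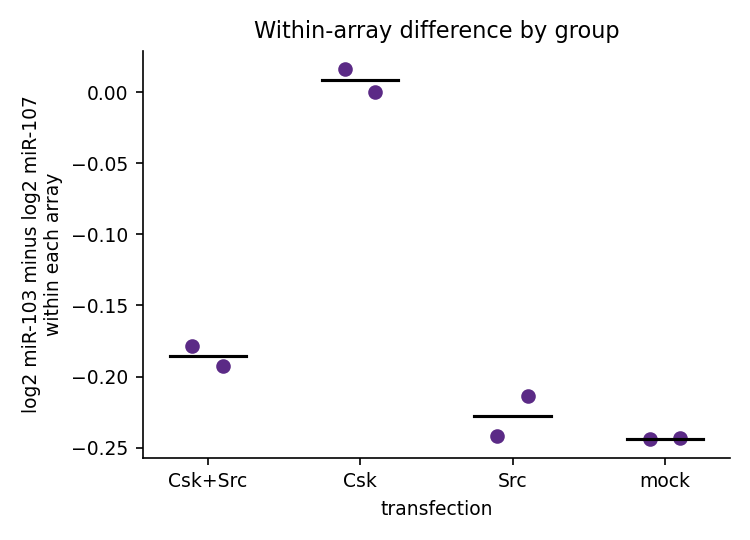
Log2 signal of miR-103 minus log2 signal of miR-107 on each of the 8 arrays (points, replicate 1 left of replicate 2) and as the group mean (line), by transfection. The 2 Csk arrays sit near 0.01, and the 6 arrays of the other groups lie between -0.24 and -0.18.

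Each microRNA was read by a pair of probes with 10 spots each, and every spot was well above background on every array. The miR-103 probes were A_54_P1341 and A_54_P1342, and the miR-107 probes were A_54_P1420 and A_54_P1421, the first of each pair being the brighter. The processed signal of A_54_P1341 was 431 and 442 on the Csk+Src arrays, 617 and 585 on the Csk arrays, 461 and 486 on the Src arrays and 400 and 431 on the mock arrays, before any scaling. That of A_54_P1342 was 228 and 224 on the Csk+Src arrays, 333 and 284 on the Csk arrays, 247 and 249 on the Src arrays and 213 and 215 on the mock arrays. So both miR-103 probes were brightest on the Csk arrays in the signal as the authors extracted it. On Csk array 2, 1 of the 10 spots of each miR-103 probe was excluded as an outlier and 0 of the miR-107 spots were.

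A_54_P1420 gave 546 and 559 on the Csk+Src arrays, 700 and 657 on the Csk arrays, 611 and 618 on the Src arrays and 528 and 567 on the mock arrays. A_54_P1421 gave 200 and 201 on the Csk+Src arrays, 240 and 211 on the Csk arrays, 226 and 234 on the Src arrays and 198 and 198 on the mock arrays. Before scaling, the brighter miR-107 probe was highest on the Csk arrays, while on the dimmer one the Csk and Src arrays overlapped. Fitted as probes of their own, the miR-103 probes rose alike in Csk against mock, by 0.47 (limma adjusted p = 0.0118) and 0.47 (adjusted p = 0.00178). The miR-107 probes had 0.25 (limma adjusted p = 0.0418) and 0.13 (adjusted p = 0.126), so the dimmer one did not pass. All 4 probes passed in Csk+Src against Csk, with -0.60 and -0.59 for the miR-103 probes and -0.44 and -0.31 for the miR-107 probes (limma adjusted p from 0.000674 to 0.00764).

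The unequal change was seen with either pairing of probes. The brighter miR-103 probe minus the brighter miR-107 probe averaged -0.17 in Csk cells, against -0.40 in mock cells. For the dimmer probes the same difference averaged 0.45 in Csk cells, against 0.11 in mock cells. The changes were thus 0.22 and 0.34, and the ranges of the Csk and mock arrays did not overlap in either. The miR-103 probes moved with each other, with the brighter minus the dimmer at 0.97 in Csk cells, against 0.96 in mock cells. The miR-107 probes did so less closely, at 1.59 in Csk cells, against 1.47 in mock cells. Here too the ranges did not overlap (1.54 to 1.64 in Csk, 1.41 to 1.52 in mock cells), with a change of 0.12. For the miR-107 probes an exact permutation test over the 4 groups gave p = 0.0952.

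The microRNAs whose profile over the 8 arrays was most like each of them were named by Pearson's r of the log2 scaled signal, as a description. All arrays share the same scaling, and the 8 points fall into 4 groups. For miR-103 these were miR-185 (r = 0.987), miR-15b* (0.984), miR-30e* (0.982), miR-344 (0.981) and miR-484 (0.977), against a median of 0.284 over 236 others. miR-344 was detected on only 3 arrays and lay at the floor of the scale on the other 5. miR-107 was at rank 10 for miR-103, with r = 0.966. For miR-107 they were miR-345-5p (r = 0.987), miR-15a (0.980), miR-326 (0.979), miR-185 (0.974) and miR-103 itself (0.966), against a median of 0.330. miR-185, in both lists, rose by 0.58 in Csk against mock (limma adjusted p = 0.000683) and had -0.86 in Csk+Src against Csk (limma adjusted p = 0.000131). miR-345-5p had 0.32 and -0.51 in those comparisons (limma adjusted p = 0.00995 and 0.00135).

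The 7 other microRNAs with AGCAGC near the 5′ end are printed with those 6 bases in capitals, because the shift of that stretch is what sets their seeds apart from that of miR-103 and miR-107.

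miR-15a: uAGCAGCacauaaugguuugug

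miR-15b: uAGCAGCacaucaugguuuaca

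miR-16: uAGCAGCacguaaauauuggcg

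miR-195: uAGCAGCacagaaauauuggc

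miR-322: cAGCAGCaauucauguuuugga

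miR-497: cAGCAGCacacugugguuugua

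miR-503: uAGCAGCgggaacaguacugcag

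In miR-103 and miR-107 the stretch starts at base 1, and in these 7 at base 2. The seed is AGCAGCA in the first 6 and AGCAGCG in miR-503.

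In Csk against mock, where 38.3% of all tested microRNAs rose and 16.9% fell, all 7 rose, with a median of 0.71 and a range from 0.30 for miR-15a to 1.20 for miR-322. Under quantile normalization miR-15b (-0.18, adjusted p = 0.0283) passed as lower, and miR-16 had -0.15 and did not pass. With the percentile over all mouse microRNAs 4 of 7 rose, and with normexp 1 did. miR-15a lost its call without either mock array, without Csk+Src array 2 and with no filter on detection (adjusted p = 0.0647). miR-15b had 0.44 and miR-16 had 0.34. miR-16 has 1 gene beside that of miR-15b on chromosome 3 and another beside that of miR-15a on chromosome 14, and its signal sums both. miR-195 (0.86) and miR-497 (0.84), also neighbours in the genome, and miR-503 (0.71) had larger differences. The difference of miR-107 (0.22) was below, and that of miR-103 (0.47) within, the range of the 7.

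All 7 fell in Csk+Src against Csk, where 41.6% of all tested microRNAs fell and 19.3% rose, with a median of -1.17 and a range from -1.48 for miR-497 to -0.47 for miR-15b. Under quantile normalization 5 fell, and miR-15b (0.06) and miR-16 (0.00) did not. With the percentile over all mouse microRNAs 5 fell, and miR-15a (-0.18) and miR-15b (-0.12) did not pass. The call of miR-15b was also lost with normexp (-0.43) and without Csk array 2 (-0.22). In Src against mock miR-322 (-1.75, limma adjusted p = 0.000114) and miR-503 (-2.50, limma adjusted p = 5.8e-05), made from neighbouring genes on the X chromosome, fell, while the other 5 lay between -0.06 and 0.11 and did not pass. Over all tested microRNAs 18.5% fell and 25.9% rose there. For the 7 the counts depended on the scaling: 5 rose and 2 fell in the series table (median 0.27), 1 rose and 4 fell under quantile normalization, 0 rose and 3 fell with the summed signal, and 2 rose and 2 fell with the median of detected microRNAs. In Csk+Src against Src miR-322 rose by 1.5 and miR-503 by 2.04, miR-16 (-0.25), miR-195 (-0.54) and miR-497 (-0.61) fell, and miR-15a (-0.16) and miR-15b (-0.03) did not pass. Of all tested, 15.6% rose and 29.2% fell in that comparison. The number of the 7 that fell there ran from 0 with normexp to 4 with the median of detected microRNAs and in the series table, and was 2 without mock array 2, Src array 2, Csk+Src array 2 or Csk array 2. Between Csk+Src and mock cells 0 rose and 4 fell, with a median of -0.24, where 12.3% of all tested rose and 21.8% fell. The number that fell ran from 0 with normexp and 1 in the series table, without mock array 2 or without Csk+Src array 2 to 6 with the summed signal or the replicate block, and the median was -0.07 with the percentile over all mouse microRNAs and -0.09 without Csk array 2. It was 2 without mock array 1 or Csk array 2. The interaction was positive past the threshold for 1 and negative for 5, with a median of -0.47, where these shares were 13.6% and 37% of all tested. With the percentile over all mouse microRNAs 2 were positive and 2 negative (median -0.06), under quantile normalization also 2 and 2 (median 0.07), and with normexp 0 passed. Leaving out mock array 2, Src array 2 or Csk+Src array 2 left 3 negative, and without Csk array 2 there were 2 positive and 4 negative.

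**Figure D5:**
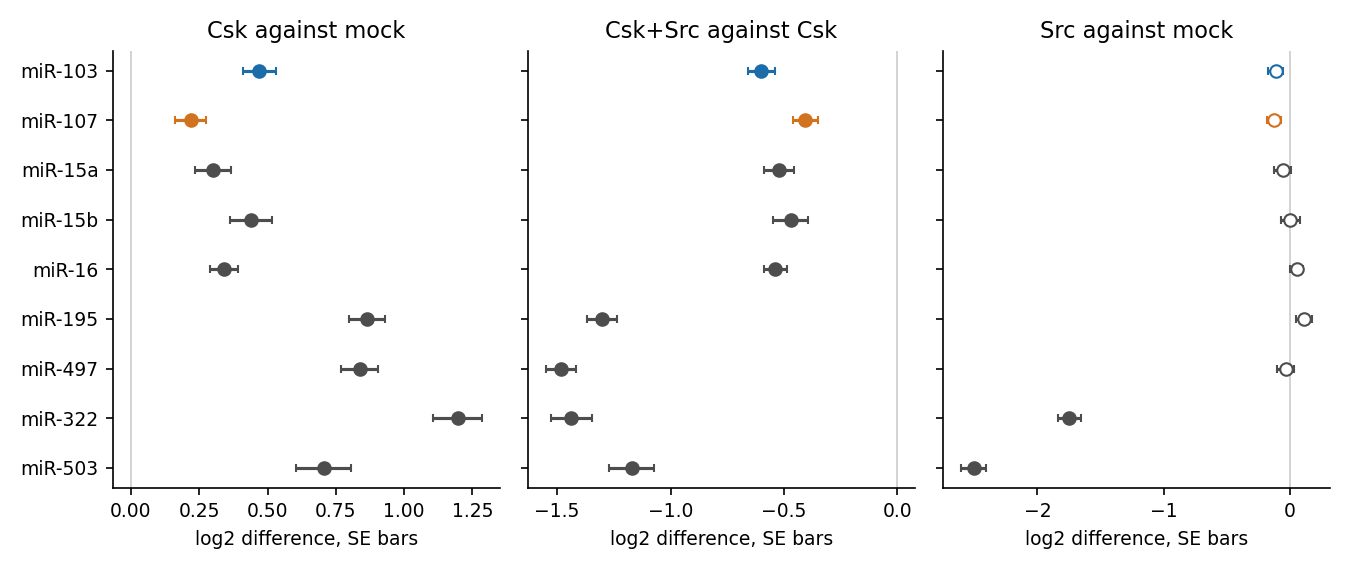
Log2 difference (points, SE bars) of miR-103, miR-107 and the 7 other microRNAs that carry AGCAGC near the 5′ end, in Csk against mock (left), Csk+Src against Csk (middle) and Src against mock (right), with filled points past the threshold. All 9 are filled in the first 2 panels, and only miR-322 and miR-503 in the third.

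Since miR-103 and miR-107 lie within genes for proteins, 43 microRNAs known from introns of other such genes were counted beside them, of which 37 were tested. In Csk against mock 18 rose and 3 fell, with a median of 0.18, where 38.3% of all tested rose and 16.9% fell. Under quantile normalization 10 rose and 7 fell (median -0.04, against -0.04 over all tested). With the percentile over all mouse microRNAs 9 rose and 7 fell (median 0.00, against -0.05 over all tested). The summed signal gave 13 and 11 (median 0.00, against -0.05), and normexp 1 and 0 (median -0.08, against -0.29). Without Csk array 2 the median was 0.10, against 0.00 over all tested. Between Csk+Src and Csk cells 4 rose and 21 fell, with a median of -0.24, where 19.3% of all tested rose and 41.6% fell. There 12 rose and 9 fell with the percentile over all mouse microRNAs (median 0.11, against 0.11 over all tested). Under quantile normalization 10 rose and 11 fell (median 0.05, against 0.08 over all tested). Without Csk array 2 the median was 0.02, against 0.00 over all tested. Without Csk+Src array 2 3 rose and 13 fell. The brightest of the list were miR-16 and miR-15b, given above, and miR-106b of the Mcm7 gene, which had 0.15 in Csk against mock, did not pass there, and rose by 0.29 in Src against mock. Over all tested microRNAs 93 rose and 41 fell in Csk against mock.

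The other lists are of microRNAs that published work names beside miR-103 and miR-107. Of 10 named in hypoxic cells, 5 rose and 2 fell in Csk against mock (median 0.29), where 38.3% of all tested rose and 16.9% fell. Under quantile normalization 4 rose and 4 fell (median -0.02, against -0.04 over all tested). Between Csk+Src and Csk cells 2 rose and 6 fell (median -0.41), where 19.3% of all tested rose and 41.6% fell. The counts were 4 and 5 with the percentile over all mouse microRNAs (median -0.06, against 0.11 over all tested). Under quantile normalization they were 3 and 5 (median -0.0037, against 0.08 over all tested). Without Csk array 2 the median was -0.17, against 0.00 over all tested. Among the brightest, miR-24 rose by 0.49 in Csk against mock, where miR-23a (0.10) and miR-27a (-0.16), which share a cluster with it, did not pass. Of 10 linked to p53, 6 were tested, and 2 rose and 3 fell in Csk against mock, where 38.3% of all tested rose and 16.9% fell. With normexp 0 rose and 1 fell, where the median over all tested was -0.29. miR-34a rose by 0.85 and miR-192 by 0.76. miR-143, which is also in the list of fibroblast and mesenchymal markers, had -2.51 and was detected on 1 of the Csk arrays. miR-34b-5p and miR-34c were not detected on either Csk array. Taking the floor of the scale for Csk cells, they were at least 2.0-fold and 1.61-fold lower there than in mock cells (limma adjusted p = 0.000678 and 0.00109). Both Csk arrays held the same floor value, so Csk cells added no spread to these p-values. miR-194 had 0.02 and did not pass. Of 9 members of the miR-200 family, which published work places downstream of miR-103, miR-107 and Dicer, 1 was detected on any array and 0 could be tested. The array carried no entry for the other strands of the miR-103 and miR-107 hairpins.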

How the data were processed

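Total RNA was labelled with Cy3 and hybridised to one-color Agilent mouse microRNA arrays, per the labels' protocols. The authors extracted the deposited spot intensity with Agilent Feature Extraction 9.5.3.1, which subtracted a fitted background and did not scale between arrays, per the file headers. The deposited gene-level intensity sums a microRNA's probes, per the file headers, and the deposited series table holds it unscaled. The arrays shared 1 slide and 1 scan. The deposited values of Csk array 1 were rounded, within 0.493% of an unrounded column.

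Here, spots marked as outliers were left out, the rest were averaged per probe and the probes of a microRNA were added. Sums were divided by the array's 75th percentile over 187 microRNAs (612 to 806 signal units), raised to at least 0.0193 (log2 -5.69) and put on the log2 scale. A mouse microRNA entered the tests if both arrays of any group detected it, which held for 243 and not for 368. Group means over the 8 arrays were fitted with limma 3.58.1 (R 4.3.3). The threshold was a Benjamini-Hochberg adjusted p of 0.05 over all 243, two-sided. Exact tests between 2 groups of 2 were not run, since their smallest p is 0.333. The within-array difference used the same prior spread, with p-values adjusted over its 6 comparisons in the main setting. Under the alternatives its calls used p-values without adjustment. Exact permutation tests ran over 105 distinct splits of the arrays. The fit was tested on simulated data. Alternatives were 5 other scalings, background correction, probe summary, detection filters, spread estimate, replicate number as a block and leaving out each array. The unscaled series table is counted among the 5 scalings. An unrounded signal column was added after seeing the data.

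Named are miR-103, miR-107, their probes, the 5 most alike microRNAs of each, the 3 brightest of each list, and all tested members of the seed group and p53 lists. Of the markers, those not detected are named, and miR-126. The members and lists were chosen with earlier results of these data known. Shares over all tested microRNAs beside the lists are from the main setting, also where a list's counts are given under an alternative. For 9 of 9 names a sequence was matched in RefSeq tables of GRCm38.p6. Figures used matplotlib 3.10.9 (Python 3.11.15).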

Additional observations from a re-analysis of the deposited data

Results flagged for a closer look

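In 3 results the change with c-Src differed between cells with and without Csk, by the interaction test. The change with c-Src where Csk is present minus the change where it is absent was -0.49 for miR-103 and -0.28 for miR-107. For the within-array difference of miR-103 and miR-107 it was -0.21, which needs no scaling between arrays. The call of this difference was still lost with normexp, under quantile normalization and in the series table. For miR-103 the call was lost with normexp and with the percentile over all mouse microRNAs (-0.08), among other alternatives. Over all tested microRNAs the median interaction was -0.17, and 50.6% passed the interaction test in either direction. The sign for miR-107 turned with the percentile over all mouse microRNAs and with the summed signal. The 3 results share the same 8 arrays. All of them rest on the Csk arrays, which filled 1 column of the slide, and an effect of that column cannot be told apart from one of Csk. The highest and lowest of 2 arrays per group could not be examined for outliers.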

How the results depend on the processing

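Of 384 recomputed values (21 results, up to 21 settings each), 305 kept their direction and side of the threshold, and 338 of 360 with a direction kept it. The scaling moved the median of all tested microRNAs by more than 0.1, for example in Csk+Src against Csk, where it was -0.15 with the scaling used in the report and 0.11 with the percentile over all mouse microRNAs. The causes were not tested.

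The percentile over all mouse microRNAs gave miR-103 0.21 in Csk+Src against Src, 0.041 in Csk+Src against mock and -0.079 in the interaction, and miR-107 0.17 in Csk+Src against Src, 0.042 in Csk against mock, -0.059 in Csk+Src against Csk and 0.13 in the interaction. Summed signal gave miR-103 -0.20 in Src against mock, 0.10 in Csk+Src against Src and -0.10 in Csk+Src against mock, and miR-107 -0.22, 0.057 and -0.16 there (all of these but 0.057 passed), 0.044 in Csk against mock and 0.012 in the interaction. Quantile normalization gave miR-103 0.0095 in Csk+Src against Src and miR-107 -0.20 there (passed), 0.10 in Csk against mock and -0.24 in Csk+Src against mock (passed). With the median of detected microRNAs miR-107 had 0.090 in Csk against mock and -0.14 in Csk+Src against mock (passed). The unscaled series table gave miR-103 0.19 in Src against mock and 0.061 in Csk+Src against mock, and miR-107 0.18 and 0.0025. The brightest probe gave miR-103 0.0082 in Csk+Src against Src.

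Normexp gave miR-103 0.41 in Csk against mock and -0.42 in the interaction, and miR-107 0.21 in Csk against mock, -0.35 in Csk+Src against Csk and -0.26 in the interaction, and each lost its call. With no detection filter miR-107 lost its calls in Csk against mock (0.22) and in the interaction (-0.28). In Csk+Src against mock miR-107 passed with the mean of log2 (-0.19) and with a trend in the spread (-0.19). The numbers were not shown to pair the arrays: same-numbered deviations correlated at -0.0912 to 0.438 over the 6 pairs of groups, and with the replicate block miR-107 passed in Csk+Src against mock (-0.19, limma adjusted p = 0.0235).

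The within-array difference in Src against mock was -0.084 with quantile normalization and -0.0039 with normexp. Its limma p without adjustment was under 0.05 in Csk+Src against Src with quantile normalization (0.21), the mean of log2 (0.050) and no filter (0.042). The same held in Csk+Src against mock with the mean of log2, no filter and a trend (0.058 each). Normexp ended its calls in Csk against mock (0.20), Csk+Src against Csk (-0.16) and the interaction (-0.16), where quantile normalization (-0.14) and the series table (-0.21) did too. The exact permutation p over the groups for miR-103 was 0.0286 with the percentile over all mouse microRNAs, 0.00952 with the summed signal and the series table, and 0.0476 with the mean of log2. For miR-107 it was 0.0857 with that percentile.

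Leaving out 1 array gave miR-103 0.38 to 0.51 in Csk against mock, -0.64 to -0.36 in Csk+Src against Csk, -0.20 to -0.042 in Src against mock, -0.087 to 0.13 in Csk+Src against Src, -0.17 to 0.019 in Csk+Src against mock and -0.56 to -0.25 in the interaction, whose call was lost without mock array 2 or Csk+Src array 2. miR-107 had 0.12 to 0.26 in Csk against mock (call lost without either mock array, Csk+Src array 2 or Csk array 2), -0.45 to -0.16 in Csk+Src against Csk, -0.20 to -0.072 in Src against mock (passed without Csk array 2), -0.12 to 0.091 in Csk+Src against Src and -0.22 to -0.039 in Csk+Src against mock (passed without Src array 1). Its interaction ran from -0.33 to -0.032 and held its call only without Src array 1 or Csk array 1. The within-array difference ran from 0.028 to 0.056 in Csk+Src against Src and from 0.051 to 0.065 in Csk+Src against mock. A group left with 1 array is assumed to vary like the others.

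Counts of microRNAs past the threshold with normexp were 28 in Src against mock (108 otherwise), 18 in Csk+Src against Src (109), 18 in Csk against mock (134), 40 in Csk+Src against Csk (148), 1 in Csk+Src against mock (83) and 1 in the interaction (123). With no filter they were 66 in Src against mock and 46 in Csk+Src against mock. Leaving out 1 array gave 56 to 112 in Src against mock, 30 to 88 in Csk+Src against mock and 80 to 121 in the interaction.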
